A study of Mus musculus with 24 samples.

Results

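Long intergenic noncoding RNAs (lincRNAs) are transcripts without a known protein product that arise between protein-coding genes, and a stretch of genome that gives rise to one can be transcribed from its forward strand, its reverse strand or both. The loci described here are the lincRNA loci for which the array carried probes against both strands. A locus was taken where the array's names listed the same chromosome, start and end with an F for the forward strand and with an R for the reverse strand, and X-linked loci were left out. Of 3540 lincRNA loci with a strand in their name, 1042 autosomal loci met this rule, 25 others were probed on both strands of the X chromosome and 2473 were probed on 1 strand. Together the 1042 loci held 9431 probes of 60 bases, 4763 against the forward and 4668 against the reverse strand, with a median of 5 probes per strand (range 1 to 10). The loci, named on the mouse genome build mm9, were between 5026 and 508115 bases long, with a median of 17751 bases.

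Total RNA of mammary glands of female mice was hybridised to 24 1-colour arrays, 3 biological replicates (A, B and C) in each of 8 groups. BALB/c is a widely used inbred strain of laboratory mice. SPRET/EiJ is inbred as well, but descends from wild-caught Mus spretus, another species. Mice of 8 to 9 weeks of age received whole-body X-rays of 10 cGy, referred to as low-dose ionizing radiation (LDIR), or a sham exposure. BALB/c tissues were taken 2, 4 and 8 weeks later, with an LDIR and a sham group at each time, and SPRET/EiJ tissues were taken at 4 weeks, again with an LDIR and a sham group. No mouse carried an engineered allele in the sample labels, and the whole gland was profiled, so fewer cells of a type and less RNA per cell cannot be told apart.

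Which DNA strand of a locus is copied into RNA sets the sequence of the transcript and its relation to the genes nearby. A transcript read from the strand opposite a gene is antisense to it, and some lincRNA loci start at promoters that fire in both directions. Malat1 and Neat1, the best known nuclear lincRNAs, lie side by side in such a catalogued region and are both read from its reverse strand. Neat1 is the scaffold of the nuclear bodies called paraspeckles, and Malat1 accumulates in nuclear speckles, where splicing factors are stored.

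A probe carries the letters of the transcript it detects, so a forward and a reverse probe at the same place are reverse complements of each other. Of the 9431 probes, 9319 were placed on the genome by the files, and 2600 pairs of a forward and a reverse probe overlapped at 699 of the loci. In 677 of these facing pairs, at 396 loci, the probes shared at least 50 of their 60 bases. These pairs ask for both strands at the same bases, and 5 of them are printed first, 5′ to 3′, with the bases that both probes of the pair cover in capitals. In the first pair all 60 bases were shared. Its forward probe was well above background on all 24 arrays and its reverse probe on none.
chr14:67585234-67596823 forward probe, chr14:67588801-67588860: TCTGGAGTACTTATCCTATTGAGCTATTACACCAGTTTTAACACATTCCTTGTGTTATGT
chr14:67585234-67596823 reverse probe, chr14:67588801-67588860: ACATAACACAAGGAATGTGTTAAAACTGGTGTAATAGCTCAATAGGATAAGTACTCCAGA
chr4:55593675-55629225 forward probe, chr4:55627486-55627545: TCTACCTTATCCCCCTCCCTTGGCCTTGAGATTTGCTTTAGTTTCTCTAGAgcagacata
chr4:55593675-55629225 reverse probe, chr4:55627477-55627536: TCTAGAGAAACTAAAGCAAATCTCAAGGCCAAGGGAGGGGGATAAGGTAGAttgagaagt
chr11:6421951-6429173 forward probe, chr11:6428047-6428106: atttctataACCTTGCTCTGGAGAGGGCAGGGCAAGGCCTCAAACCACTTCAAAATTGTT
chr11:6421951-6429173 reverse probe, chr11:6428056-6428115: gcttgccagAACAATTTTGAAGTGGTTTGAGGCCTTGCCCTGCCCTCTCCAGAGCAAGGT
chr5:34696192-34722842 forward probe, chr5:34713032-34713091: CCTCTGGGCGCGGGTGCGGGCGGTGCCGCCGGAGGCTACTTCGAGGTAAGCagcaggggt
chr5:34696192-34722842 reverse probe, chr5:34713023-34713082: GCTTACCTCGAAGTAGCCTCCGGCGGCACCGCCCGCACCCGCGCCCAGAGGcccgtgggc
chr11:19778600-19815950 forward probe, chr11:19806188-19806247: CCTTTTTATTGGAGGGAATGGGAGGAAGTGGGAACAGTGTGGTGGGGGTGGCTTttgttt
chr11:19778600-19815950 reverse probe, chr11:19806182-19806241: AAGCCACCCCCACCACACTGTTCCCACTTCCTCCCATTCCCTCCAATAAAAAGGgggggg

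Well above background is the scanner software's own mark for a spot whose signal clearly exceeds its local background. A level, as used throughout, is the log2 intensity of a probe minus the log2 of the 75th percentile of the same array, so that a level of 0 equals that percentile. At chr14:67585234-67596823 the forward probe had levels from 3.36 to 5.06 over the 24 arrays (median 4.49), and the reverse probe of the same 60 bases had levels from -8.18 to -5.44 (median -7.62). Only the forward strand was therefore detected at these bases, on every array of both strains. At chr4:55593675-55629225, where 51 bases were shared, the forward probe lay between 1.5 and 2.62 (median 2.11) and was on all 24 arrays, and the reverse probe lay between -8.22 and -4.49 (median -7.35) and was on none. The pair at chr11:6421951-6429173, also with 51 shared bases, ran the other way, with the reverse probe between 1.63 and 2.28 (median 2.06) on all 24 arrays and the forward probe between -7.97 and -5.69 (median -7.07) on none. Both strands were detected on all 24 arrays at the last pairs. At chr5:34696192-34722842 the forward probe lay between 2.73 and 5.08 (median 4.31) and the reverse probe between 2.69 and 4.58 (median 3.84), with 51 bases shared. At chr11:19778600-19815950, with 54 bases shared, the forward probe lay between -0.20 and 1.63 (median 1.00) and the reverse probe between 2.44 and 3.66 (median 2.84). Probes differ in how strongly they bind, so levels of different probes are set side by side here and not ranked against each other.

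Over all 677 near-complete facing pairs, both probes reached that mark on every array in 101 pairs, the forward probe alone in 143, the reverse probe alone in 151 and neither in 282. In 58 pairs 1 probe was well above background on all 24 arrays and its facing probe on none. Whether a probe also binds transcripts of other places in the genome was not analysed here.

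Each strand of a locus was then given by a strand probe, the probe with the highest mean level over the 24 arrays among those of that strand, which made 2084 strand probes for 1042 loci, 255 of them the only probe of their strand. Strand probes were well above background on between 74.6% and 90.2% of spots per array (median 86.3%). All probes of the loci reached 39.9% to 61.6% (median 56.1%), close to the 38.7% to 63.1% of the other lncRNA probes (median 57.2%) and below the 64.4% to 77.6% of the array's gene probes (median 74.0%). The higher share of the strand probes follows from taking the brightest probe of each strand. On all 24 arrays, 34.9% of the probes of the loci, 32.9% of the other lncRNA probes and 60.5% of the gene probes were well above background. Mean levels of the forward strand probes ran from -7.82 to 8.13 with a median of -2.63, and those of the reverse strand probes from -7.97 to 7.92 with a median of -2.49.

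A strand was counted as detected where its strand probe was well above background on all 3 arrays of at least 1 group. Both strands were detected at 842 loci (80.8%), the forward strand only at 82 (7.87%), the reverse strand only at 96 (9.21%) and neither at 22 (2.11%). Requiring all 24 arrays left both strands at 523 loci, the forward strand only at 204, the reverse strand only at 210 and neither at 105. Forward and reverse strands were thus detected alone in similar numbers under either rule. With 1 probe to stand for each strand the picture was different, since at the 70 loci with a sole probe on each strand both were detected at 29 (41.4%), the forward only at 17, the reverse only at 13 and neither at 11.

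Group by group, the loci with both strands well above background on all 3 arrays numbered 705 in BALB/c sham and 738 in BALB/c LDIR tissues taken after 2 weeks. The corresponding numbers were 721 and 794 after 4 weeks and 689 and 687 after 8 weeks. In SPRET/EiJ they numbered 693 in sham and 585 in LDIR tissues. The lowest count belonged to the group that holds SPRET/EiJ LDIR replicate C, an array on which 58.2% of spots were well above background, against 65.5% to 73.4% on the others.

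**Figure D1:**
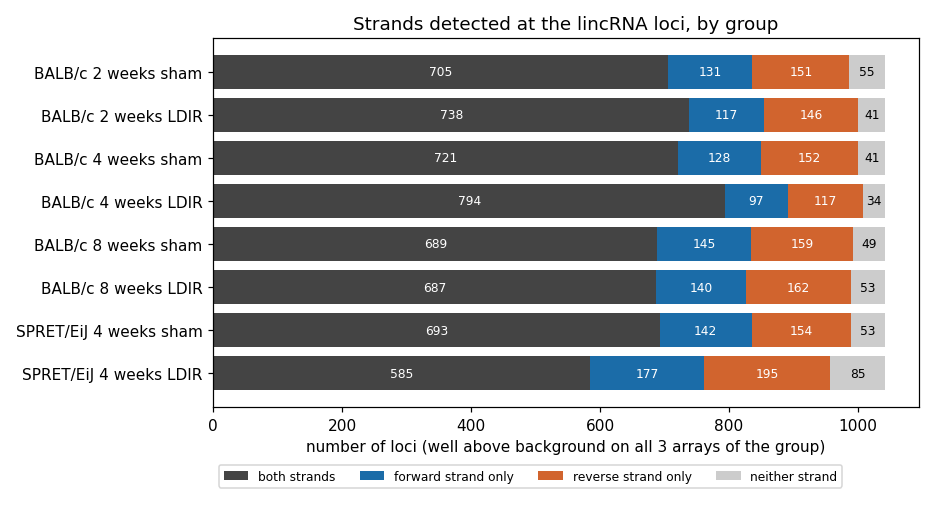
Number of the 1042 loci (horizontal axis) at which both strands, the forward strand only, the reverse strand only or neither strand was well above background on all 3 arrays of each of the 8 groups (vertical axis). Both strands were detected at between 585 and 794 loci, and the loci with the forward strand only and with the reverse strand only were of similar number in each group.

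At 13 loci the forward strand probe was well above background on all 24 arrays and the reverse strand probe on none, and at 12 loci it was the reverse strand probe that was on all 24 arrays and the forward on none. The forward probe with the highest mean level among the former was at chr7:69024136-69131056, where it lay between 1.45 and 2.37 (median 2.03) and the reverse probe between -8.22 and -6.28 (median -7.63). A single gene probe, for A230057D06Rik, lay inside that locus on its reverse strand, and it was well above background on 1 array. The forward probe at chr13:65716675-65765575 lay between 0.74 and 1.61 (median 1.18), with the reverse probe between -8.17 and -5.64 (median -7.22). At chr1:81632600-81644175 the strand probes shared 53 bases, and the forward probe lay between -0.91 and 0.16 (median -0.15) while the reverse lay between -8.20 and -6.23 (median -7.67). These 3 loci, and those at chr9:121207045-121269020 (forward median -1.72, 46911 bases from a probe of the kinase gene Ulk4) and chr10:69819062-69871640 (forward median -2.37), showed a forward probe that never overlapped the range of its reverse probe. Loci were named here for a forward probe detected on every array and a reverse probe on none, which all but sets this separation.

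Among the loci with the reverse strand alone, chr10:83325890-83402790 came first, with the reverse probe between 0.49 and 3.11 (median 1.90) and the forward probe between -8.16 and -5.99 (median -7.70). At chr10:21542515-21579890 the reverse probe lay between -0.55 and 2.20 (median 0.05) and the forward probe between -8.21 and -4.76 (median -7.64), and the probe of the predicted gene Gm6846 inside the locus, on the same reverse strand, was well above background on no array. At chr2:135472670-135484220, which lies 3066 bases from a probe of the phospholipase gene Plcb4, the strand probes shared 50 bases, and the reverse probe lay between -2.12 and 0.40 (median -1.56) against -8.43 to -4.60 (median -7.26) for the forward probe. At both of these loci the 6 SPRET/EiJ arrays held the highest levels of the reverse probe. In sham tissues the reverse probe of chr10:21542515-21579890 read -0.10, 0.25 and 0.13 on the BALB/c arrays and 1.73, 1.75 and 2.20 on the SPRET/EiJ arrays, a difference of -1.80 (SE 0.20, adjusted p = 0.00232). The reverse probe of chr2:135472670-135484220 read -1.63, -1.67 and -1.55 in BALB/c and 0.16, 0.40 and -0.18 in SPRET/EiJ, a difference of -1.74 (SE 0.20, adjusted p = 0.00232). The remaining named loci of this kind were chr1:137679100-137689925 (reverse median -1.40), 13399 bases from a probe of the p53 target gene Phlda3, and chr7:67111261-67120697 (reverse median -1.80), 6729 bases from a probe of Snrpn, an imprinted gene.

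Loci with both strands on all 24 arrays were named by the highest mean level of the dimmer probe, which sets their high levels. At chr12:73838608-73862621 the forward probe lay between 7.23 and 8.68 (median 8.25) and the reverse probe between 7.18 and 8.45 (median 7.96), and the gene probe inside it, for 5033425G24Rik on the reverse strand, was on all 24 arrays. Both strands were also bright at chr5:34696192-34722842, whose strand probes had medians of 5.74 (forward) and 3.84 (reverse) and which lies 651 bases from a probe of Rnf4, a ubiquitin ligase gene, and at chr8:91569369-91594119, with medians of 4.05 and 3.53. The locus chr17:39960567-39992817 held the probes of the ribosomal RNA gene Rn18s and of BC031453 and AK145507 on its forward strand, and its strand probes had medians of 5.81 and 2.58. At chr14:26834450-26847000 the forward probe read 2.60, 2.16 and 2.51 on the BALB/c sham arrays at 4 weeks and 5.02, 5.29 and 4.70 on the SPRET/EiJ sham arrays, and the reverse probe read 4.11, 4.31 and 3.40 against 3.94, 4.02 and 4.40. The forward strand was lower in BALB/c by 2.58 on the log2 scale (SE 0.22, adjusted p = 0.000939), with no overlap of the strains, while the reverse strand differed by -0.18 (SE 0.29, adjusted p = 0.709) and its ranges overlapped.

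**Figure D2:**
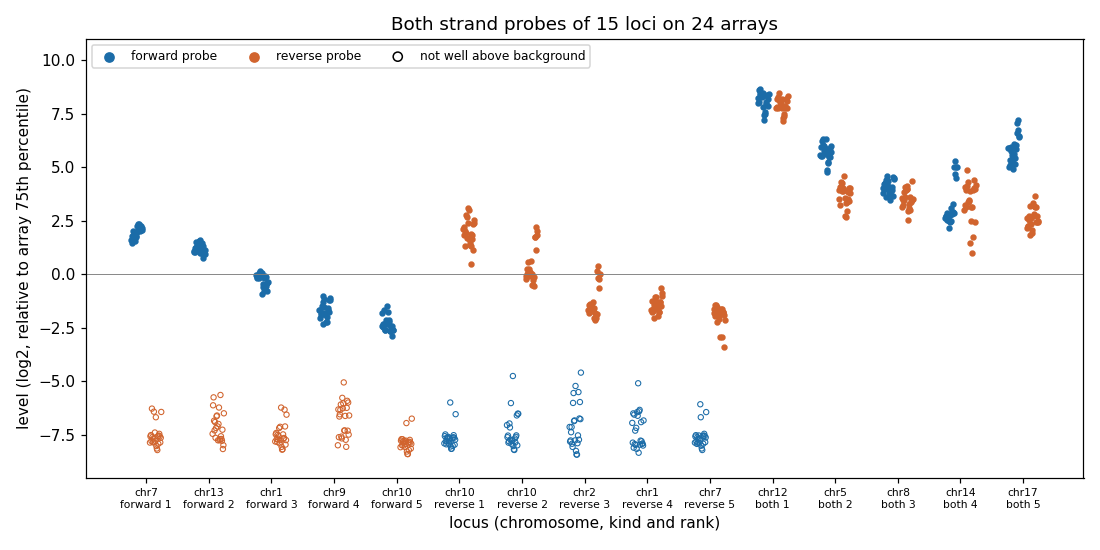
Levels (log2 relative to the array's 75th percentile, vertical axis) of the forward and reverse strand probes of the 15 loci named by detection, 1 point per array for 24 arrays, with open circles where the spot was not well above background. At the 5 forward loci and the 5 reverse loci on the left the undetected probe lay at or below -4.60 on every array, and at the 5 loci on the right both probes lay above 0 on every array.

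The gene probes whose level followed these loci most closely over the 24 arrays were found among 39320 gene probes by Pearson correlation, as a description. They were Ccdc101 for the forward strand of chr7:69024136-69131056 (r = 0.93), Cyp2r1, a vitamin D 25-hydroxylase gene, for the reverse strand of chr10:83325890-83402790 (r = 0.94), and Zfp628 and ENSMUST00000060478 for the forward and reverse strands of chr12:73838608-73862621 (r = 0.98 and r = 0.95). The arrays share slides and groups, so these values are not independent readings.

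Genes inside or next to a locus give its strands a direction. No gene probe lay inside 674 of the loci, whose median distance to the nearest gene probe was 12662 bases. Gene probes here are all probes outside the lncRNA set and include noncoding genes such as Malat1 and Neat1. A gene probe inside a locus therefore does not place a protein-coding gene there. Of the 306 loci with gene probes inside on 1 strand only, the strand probe on the gene's strand had a mean level above 0 at 85 (27.8%) and the strand probe on the opposite strand at 52 (17.0%). The same held separately for the 144 loci with gene probes on the forward strand (27.8% of forward and 16.7% of reverse strand probes above 0) and for the 162 with gene probes on the reverse strand (17.3% and 27.8%). At the 674 loci without a gene probe the shares were 17.5% (forward) and 16% (reverse). Detection did not follow the gene's strand in this way, since 75% of forward and 76.4% of reverse strand probes were on all 24 arrays where the gene probes were forward, and 73.5% and 72.8% where they were reverse. In all, 390 strand probes had a mean level above 0, and at 47 loci both did.

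Some strand probes read an annotated transcript directly. The letters of 7 strand probes were those of a gene probe, and 14 shared at least 30 bases with a gene probe of the same strand, 12 of them on all 24 arrays together with the gene probe and with a median r of 0.98 over the arrays. The locus chr19:5771425-5848475, which spans Malat1 and Neat1, fell short of this, its reverse strand probe sharing fewer than 30 bases with a Malat1 probe. Its strand probes are shown because the reverse one overlaps a Malat1 probe and the forward one lies next to the Neat1 probes on the opposite strand.
chr19:5771425-5848475 forward probe, chr19:5845052-5845111: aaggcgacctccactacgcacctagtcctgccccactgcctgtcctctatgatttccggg
chr19:5771425-5848475 reverse probe, chr19:5795752-5795811: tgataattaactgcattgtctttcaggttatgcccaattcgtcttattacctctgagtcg

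The reverse strand probe of chr19:5771425-5848475 overlapped the Malat1 probe at 5795713 to 5795772, with which it correlated at r = 0.98, and had levels from 0.11 to 2.02 (median 0.74). Its other reverse probe, at the far end of the locus (chr19:5771551-5771610), was well above background on no array. All 10 forward probes lay between 5842428 and 5845243, on either side of the Neat1 probes, and each of them was on all 24 arrays, with mean levels from -3.29 to 3.13. The 6 probes that carry Neat1's name, on the reverse strand between 5842534 and 5842845, had mean levels from 4.26 to 5.37. Signal on the forward strand was therefore read on every array next to the Neat1 probes. The 6 Neat1 probes were higher in BALB/c sham tissues by 1.34 to 1.94 (adjusted p from 0.00114 to 0.00434), whereas the forward strand probe differed by -0.63 (adjusted p = 0.240) and the forward probe nearest to the Neat1 probes, at 5842428 to 5842487, by -0.07 (adjusted p = 0.831). The other 8 forward probes differed in sham tissues by between -0.74 and 1.5, and 1 of the 10, at 5845035 to 5845094, had an adjusted p under 0.05 (difference -0.74, adjusted p = 0.0378). In the LDIR tissues at 4 weeks the Neat1 probes were higher in BALB/c by 1.66 to 2.28. The forward probes at 5844761 to 5844820 and 5843984 to 5844043 were higher too, by 2.96 and 1.57 (adjusted p = 0.00371 and 0.0341). Both were also higher in sham tissues (adjusted p = 0.205 and 0.0541). The remaining forward probes differed by between -0.485 and 0.597 in LDIR tissues, with no adjusted p under 0.05. Other lincRNA probes on the reverse strand, at 5834543 to 5834916, were lower in BALB/c. They differed by between -2.54 and -1.61 in sham tissues (adjusted p from 0.000879 to 0.00429). In LDIR tissues they differed by between -2.70 and -1.86 (adjusted p from 0.0273 to 0.0861). Those at 5798256 to 5802326 differed by between -0.45 and 0.05 in sham tissues, with no adjusted p under 0.05.

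**Figure D3:**
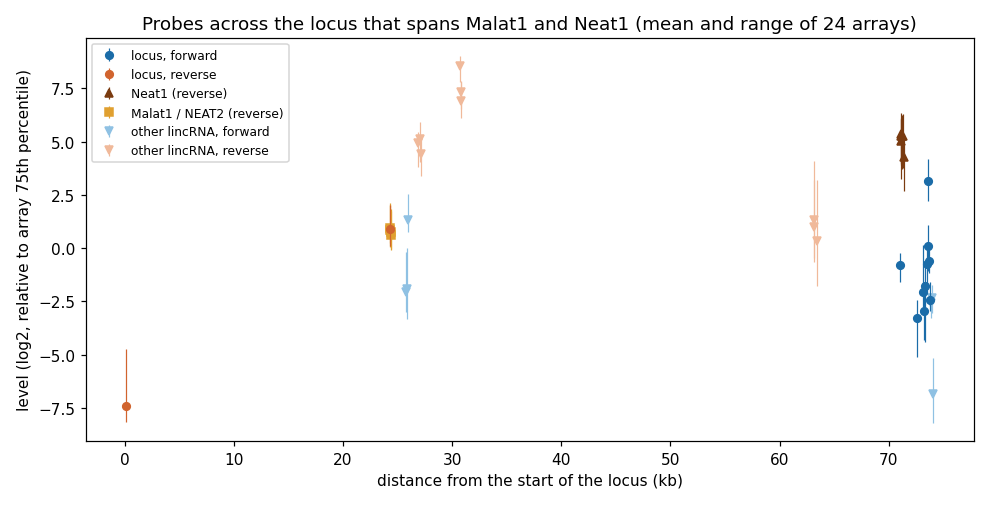
Mean level (log2 relative to the array's 75th percentile, vertical axis) with the range over 24 arrays of each probe in chr19:5771425-5848475, by distance from the start of the locus in kb (horizontal axis), with symbols for the locus's own forward and reverse probes, Neat1, Malat1 and other lincRNA probes. The locus's 10 forward probes lie between 71.0 and 73.8 kb at mean levels from -3.29 to 3.13, next to the Neat1 probes at 4.26 to 5.37.

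Forward and reverse strands of a locus moved together only loosely over the arrays. At the 523 loci with both strand probes on all 24 arrays, the median Pearson correlation of forward and reverse levels was 0.30, and 23.9% of the loci were below 0. Within the 18 BALB/c arrays the median was 0.38. The 2 brightest probes of the same strand had a median correlation of 0.49 (836 strands), and 2 probes of the same gene had one of 0.64 (3068 genes, 0.67 in BALB/c). Facing probes with at least 50 shared bases had a median of 0.32 (101 pairs). These correlations are descriptions across 24 arrays that share strains, times and slides, and probes near background add noise of their own.

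The baseline comparison asked which strands differed between the strains without radiation, in the 3 BALB/c and 3 SPRET/EiJ sham tissues taken at 4 weeks. Differences are BALB/c minus SPRET/EiJ on the log2 scale, tested with limma across all 55681 probes, and a probe is said to have passed when it met the study's thresholds of an unadjusted p under 0.001 and more than 1.5-fold. Of the 2084 strand probes 170 passed. They were 107 (5.13%) higher and 63 (3.02%) lower in BALB/c, against 5.43% and 3.42% of all probes. At an adjusted p under 0.05 there were 356 (17.1%), against 18.7% of all probes. The median difference was -0.09 over the strand probes and -0.06 over all probes. The strand probes thus differed between strains about as often as the array as a whole, at 170 (8.16%) against 8.85%. Left out singly, the arrays that moved the count most were BALB/c sham replicates A (105 passed) and C (113) and SPRET/EiJ sham replicate A (112).

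Among the 163 loci with a strand that passed, 156 had 1 strand that passed and 7 had both, 3 of them in the same and 4 in opposite directions. Of the 156 loci, 76 also passed the test of the strand difference described next, so that at the remainder the strands were not shown to differ in their strain response. Among the 648 loci with both strand probes well above background on all 6 sham arrays, the strands differed between strains with the same sign at 340 (52.5%), and the strain differences of the strands were uncorrelated across loci (r = -0.00). For comparison, 2 probes of the same gene had the same sign in 66.1% of 3366 genes (r = 0.45). Facing probes that share at least 50 bases and were well above background on these arrays had the same sign in 88 of 152 pairs (57.9%, r = 0.23), with both probes passing in 5 pairs and 1 in 18. Loci are not independent replicates and all points share the same 6 arrays, so these values are descriptions.

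The strand difference, the forward minus the reverse level of a locus within each array, tests directly whether a locus's strands differ in their response. Of the 1042 loci, 99 (9.50%) passed the strain thresholds for this difference, against 9.64% of all 6690 pairs of probes fitted together, which include 5648 genes with exactly 2 probes. At an adjusted p under 0.05 there were 243 loci (23.3%), against 22.7% of all pairs. Strands of a locus thus differed in strain response about as often as did 2 probes of the same gene. Without BALB/c sham replicate A the count was 60, without SPRET/EiJ sham replicate A it was 58 and without SPRET/EiJ sham replicate C it was 57.

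**Figure D4:**
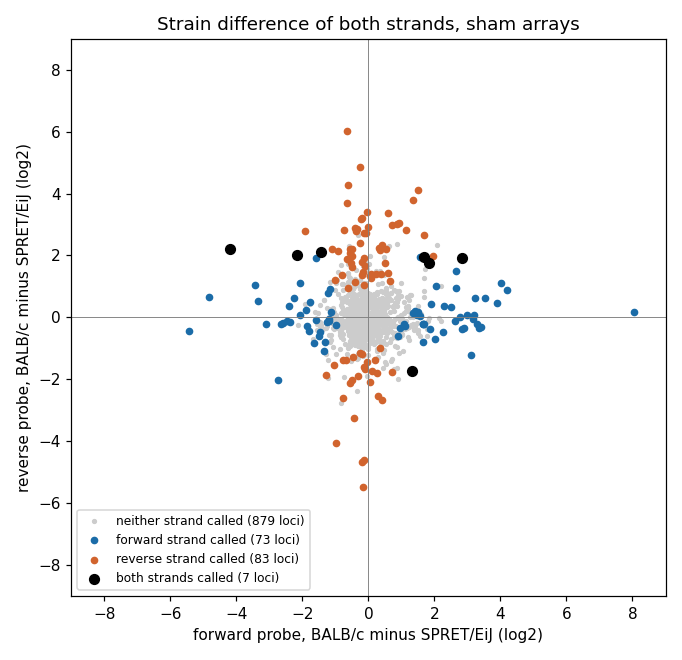
Strain difference in sham tissues (BALB/c minus SPRET/EiJ, log2) of the forward strand probe (horizontal axis) against the reverse strand probe (vertical axis), 1 point per locus for 1042 loci, coloured by which strand passed the strain thresholds. Most loci that passed lie along an axis, with 156 passing on 1 strand and 7 on both, and 76 of the 156 also passed for the difference between the strands.

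The strains and the slides cannot be told apart in the sham comparison, since the SPRET/EiJ arrays were all on slide 3 and the BALB/c arrays on slides 1 and 2. The sham comparison was set beside the LDIR tissues taken at 4 weeks, which come from other mice. There too strain and slide cannot be told apart, with the BALB/c arrays on slide 2 and the SPRET/EiJ arrays on slide 3. A difference found again in LDIR tissues therefore does not separate them. Of the 170 strand probes that passed in sham tissues, 169 differed in the same direction and 163 by more than 1.5-fold, and 76 passed there too, which is 44.7% of the sham calls and 76.0% of the 100 LDIR calls (r = 0.96 over the 170). Over all probes 45.7% of the sham calls passed again. In the LDIR tissues 77 strand probes (3.69%) were higher and 23 (1.1%) lower in BALB/c, against 3.82% and 1.85% of all probes, and 217 (10.4%) had an adjusted p under 0.05, against 11.1% of all probes. The split between higher and lower was 59 to 36 with normexp background correction. Strand differences passed at 81 loci (7.77%), against 10.4% of all pairs, and 230 (22.1%) at an adjusted p under 0.05, against 23.6%. The count of 100 fell to 56, 50 and 60 without BALB/c LDIR replicates A, B and C, and that of 81 to 50, 38 and 45. Without SPRET/EiJ LDIR replicates B and C the latter was 45 and 46. A comparison within slide 3, between the 2 BALB/c LDIR arrays at 8 weeks and the same 3 SPRET/EiJ LDIR arrays, gave 43 strand probes, 20 higher and 23 lower, with the median of all probes shifted by -0.37. Of the 100 strand probes that passed in the LDIR tissues at 4 weeks, 96 had the same sign within slide 3 and 32 passed again.

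Presence in 1 strain alone was rare. Only 13 strand probes (0.624%) reached the background mark on each of the 6 BALB/c arrays at 4 weeks and on no SPRET/EiJ array, against 1.11% of all probes, and 0 held the other way, against 0.232% of all probes. Strand probes were chosen by their mean level over all arrays, most of them BALB/c. A probe detected in SPRET/EiJ alone was thus less likely to be chosen, so these shares and their direction follow in part from the choice. The probes follow the reference mouse genome, and the SPRET/EiJ bases under them were not analysed here.

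Markers of the cell types in the gland were read on the same arrays. Of 29 marker genes 21 passed that mark on all 24 arrays, among them all 6 of mammary epithelium (Krt8, Krt18, Krt5, Krt14, Epcam and Cdh1) and all 4 of white adipocytes. Between the strains 1 marker passed as higher and 1 as lower in sham tissues. A summed level is the log2 of the summed intensities of a list's genes, each relative to its array's percentile. It mostly follows the brightest genes of the list. For the 6 epithelial markers it ran from 6.79 to 7.78 in BALB/c and from 4.38 to 6.72 in SPRET/EiJ sham tissues. These ranges did not overlap, and 0 of the 6 passed. Krt18 and Krt8 were brightest (medians 6.61 and 4.79 over the 24 arrays) and differed between strains by 1.61 and 1.81. The basal keratins Krt5 and Krt14 were dimmer (medians 2.31 and 0.32) and differed by 0.53 and 0.85. The summed erythrocyte markers ran from 6.04 to 6.37 in BALB/c and from 6.40 to 7.68 in SPRET/EiJ, with 0 of 2 passing. The summed lymphocyte markers ran from 2.83 to 3.08 and from 3.30 to 3.48, with 1 of 3 passing, the B cell receptor gene Cd79a (difference -1.29), while the T cell gene Cd3e differed by 0.36 and did not pass. The other 6 lists overlapped. In the LDIR tissues the epithelial list ran from 6.84 to 8.11 in BALB/c and from 4.85 to 6.2 in SPRET/EiJ, the lymphocyte list from 2.72 to 3.03 and from 3.40 to 5.11, and the skeletal muscle list (3 genes) from 0.27 to 0.83 and from -1.67 to 0.18. The part of these cells in the strain differences of the loci was not tested.

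The locus with the largest opposite change was chr3:51138643-51146693, whose probes share 12 bases and are each the only probe of their strand.
chr3:51138643-51146693 forward probe, chr3:51141745-51141804: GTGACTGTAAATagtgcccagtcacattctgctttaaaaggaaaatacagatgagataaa
chr3:51138643-51146693 reverse probe, chr3:51141697-51141756: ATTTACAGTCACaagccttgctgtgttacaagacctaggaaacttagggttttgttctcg

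The forward probe of chr3:51138643-51146693 read -0.32, -0.55 and -0.44 in BALB/c sham and 3.97, 4.12 and 3.18 in SPRET/EiJ sham tissues. Its reverse probe read -3.77, -3.99 and -3.78 in BALB/c and -5.81, -5.75 and -6.63 in SPRET/EiJ, where it was not well above background. The forward strand was lower and the reverse strand higher in every BALB/c array, with no overlap. Loci named for their strain difference were taken only where the probes that passed did not overlap, so this follows from the choice. The forward difference was -4.19 (SE 0.28, adjusted p = 0.000354), the reverse strand was higher in BALB/c by at least 3.27-fold (adjusted p = 0.00316), and the strand difference was -6.41 (SE 0.14, adjusted p = 2.51e-05). In the LDIR tissues the strand difference was -6.49 (SE 0.77, adjusted p = 0.00414). The nearest gene probe, of the predicted gene Gm5103, lay 43357 bases away.

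A similar pattern was measured at chr8:122807653-122823000, whose forward probe read 3.90, 3.58 and 3.97 in BALB/c and 5.90, 5.83 and 6.18 in SPRET/EiJ sham tissues. The reverse probe read -0.56, -1.11 and -0.62 against -2.84, -2.70 and -2.80. Every array of a strain lay on 1 side for each strand. The differences were -2.15 (SE 0.19, adjusted p = 0.001) on the forward and 2.02 (SE 0.20, adjusted p = 0.00149) on the reverse strand, a strand difference of -4.17 (SE 0.18, adjusted p = 0.000178), and -4.06 (SE 0.16, adjusted p = 0.000248) in the LDIR tissues. Of the other 4 probes on each strand, 3 forward probes had the sign of the forward strand probe and 1 reverse probe that of the reverse strand probe.

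At chr3:21964899-21974524 the reverse probe has the letters of the probe of 2810416G20Rik, a gene read from the reverse strand, with which it correlated at r = 0.99 over the arrays. The reverse probe read -0.98, -0.50 and -0.82 in BALB/c and -2.22, -3.53 and -2.85 in SPRET/EiJ sham tissues, a difference of 2.10 (SE 0.35, adjusted p = 0.00969), and all 4 other reverse probes had the same sign. The forward probe read -1.43, -1.42 and -1.11 against -0.10, 0.53 and -0.05, a difference of -1.45 (SE 0.23, adjusted p = 0.00837), with 1 of 4 other forward probes of the same sign. The strand difference was -3.55 (SE 0.51, adjusted p = 0.00691). All reverse probes, on the strand that carries 2810416G20Rik, were thus higher in BALB/c, while the lower level on the forward strand was read by its strand probe and 1 other and had the opposite sign at 3 of the 5 forward probes.

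Near Acad12, a gene of the acyl-CoA dehydrogenase family whose probes lie inside chr5:122047900-122065325 on the reverse strand, the reverse strand probe read -2.36, -2.39 and -2.82 in BALB/c and -0.63, -0.86 and -0.89 in SPRET/EiJ sham tissues. The reverse difference was -1.73 (SE 0.20, adjusted p = 0.00237), and the Acad12 probe itself differed by -1.56 (adjusted p = 0.00280) and followed the reverse strand probe at r = 0.98. The forward probe read -2.36, -2.62 and -2.21 against -3.71, -3.44 and -3.96, a difference of 1.31 (SE 0.21, adjusted p = 0.00833). All 4 other forward probes had the opposite sign, between -1.56 and -0.68, so that the mean of the forward probes differed by -0.58 and the forward direction rests on 1 probe.

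**Figure D5:**
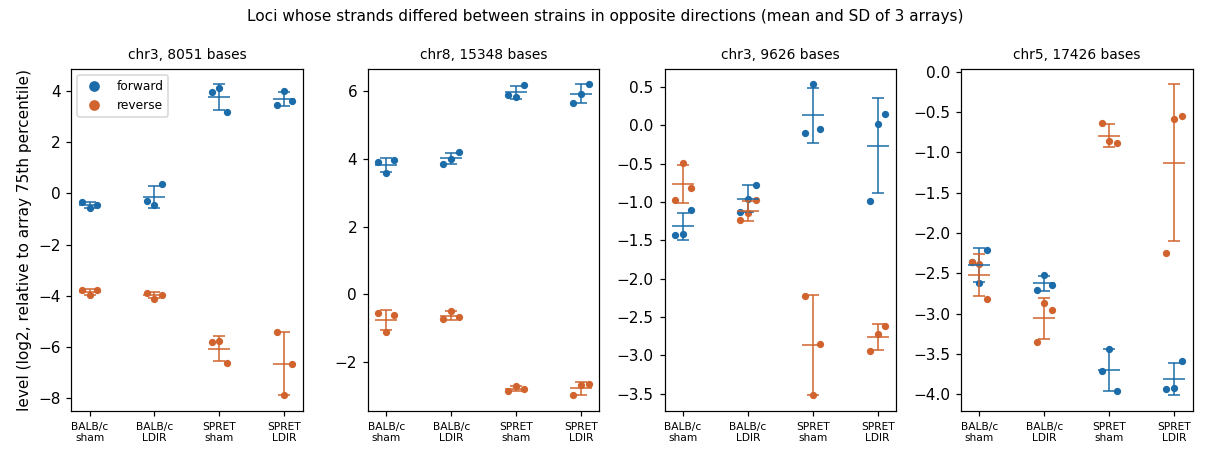
Levels (log2 relative to the array's 75th percentile, vertical axes, which differ between panels) of the forward and reverse strand probes at the 4 loci whose strands passed in opposite directions, for the 4-week sham and LDIR arrays of BALB/c and SPRET/EiJ, with points for arrays and bars for the mean and SD of 3. In sham tissues the BALB/c and SPRET/EiJ points of each strand do not overlap, which the rule for naming the 4 loci required.

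Both strands were higher in BALB/c at 3 loci. At chr10:6480075-6603900 the forward probe read -2.36, -2.07 and -2.20 in BALB/c and -4.18, -3.81 and -3.72 in SPRET/EiJ sham tissues, and the reverse probe -2.92, -2.67 and -2.53 against -4.75, -4.51 and -4.75. The differences were 1.69 (SE 0.19, adjusted p = 0.00247) and 1.96 (SE 0.18, adjusted p = 0.00112), and the strand difference of -0.28 (SE 0.19, adjusted p = 0.354) did not pass. Both were found again in the LDIR tissues, at 1.63 (SE 0.25) and 1.73 (SE 0.23).

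At chr12:117623500-117643575, whose probes share 33 bases, the forward probe read -5.10, -4.80 and -4.67 in BALB/c and was not well above background in SPRET/EiJ (-7.70, -7.63 and -7.76), which made a difference of at least 1.62-fold (adjusted p = 0.000292). The reverse probe read -3.39, -3.07 and -3.46 against -5.75, -5.27 and -4.68 (2 of 3 well above background), a difference of 1.93 (SE 0.30, adjusted p = 0.00772). At chr5:110261075-110376700 the forward probe read -0.84, -0.83 and -0.80 against -2.64, -2.93 and -2.44, a difference of 1.85 (SE 0.18, adjusted p = 0.00146). Its reverse probe read -4.43, -4.91 and -4.74 in BALB/c and -6.45, -6.27 and -6.66 in SPRET/EiJ, where it was not well above background, at least 1.81-fold higher (adjusted p = 0.00247). The reverse strand was not found again in the LDIR tissues (-0.16, SE 0.88, adjusted p = 0.926), where the SPRET/EiJ arrays read -2.61, -4.22 and -6.43.

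Next come loci at which 1 strand and the strand difference passed. Of 71 such loci that met the naming rule, those with the largest strand differences were named, so their large size follows from the choice. The widest was at chr4:141527564-141547339, 8717 bases from a probe of Fhad1, where the strand probes share 47 bases and are the only probes of the locus. They are printed because the same bases gave a strain difference on 1 strand alone.
chr4:141527564-141547339 forward probe, chr4:141532840-141532899: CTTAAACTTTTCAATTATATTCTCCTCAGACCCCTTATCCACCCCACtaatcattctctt
chr4:141527564-141547339 reverse probe, chr4:141532827-141532886: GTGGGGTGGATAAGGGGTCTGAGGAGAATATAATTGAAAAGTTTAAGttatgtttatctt

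The forward probe of chr4:141527564-141547339 read 6.18, 5.60 and 5.31 in BALB/c and -2.59, -2.26 and -2.19 in SPRET/EiJ sham tissues, and the reverse probe -4.91, -5.62 and -4.20 against -4.89, -5.51 and -4.81, well above background on 2 of 3 arrays of each strain. The strains lay far apart on the forward strand and overlapped on the reverse strand. The forward difference was 8.04 (SE 0.27, adjusted p = 4.97e-05) and the reverse 0.16 (SE 0.40, adjusted p = 0.815), with a strand difference of 7.88 (SE 0.53, adjusted p = 0.000633). In the LDIR tissues the forward difference was 7.62 (SE 0.29, adjusted p = 0.000133).

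At chr11:82588507-82594501 the reverse probe, the only probe of its strand, read -1.39, -1.11 and -1.38 in BALB/c and was not well above background in SPRET/EiJ (-7.70, -6.50 and -7.78), which made a difference of at least 19.1-fold (adjusted p = 0.000263). The forward probe read -2.69, -2.40 and -1.80 against -1.75, -1.44 and -1.80, a difference of -0.64 (SE 0.27, adjusted p = 0.164). The reverse strand was again not well above background on the SPRET/EiJ LDIR arrays (-6.20, -7.21 and -5.83). A gene probe of Zfp830, a zinc finger gene, lay 9129 bases away.

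Next to 1110059E24Rik, whose probe lies 297 bases away, the reverse probe of chr19:21653968-21671718 read -2.78, -2.15 and -2.22 in BALB/c and was not well above background in SPRET/EiJ (-6.69, -7.47 and -7.57), at least 8.99-fold higher (adjusted p = 0.000311). The forward probe read -2.12, -2.09 and -2.03 against -1.88, -1.64 and -1.99, a difference of -0.24 (SE 0.17, adjusted p = 0.383). The strains overlapped on neither strand, but the gap on the forward strand did not pass.

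The remaining 3 named loci were lower in BALB/c on 1 strand. At chr8:126268510-126290810 the forward probe read -0.38, -0.51 and -0.13 in BALB/c and 4.28, 5.16 and 4.03 in SPRET/EiJ sham tissues, a difference of -4.83 (SE 0.32, adjusted p = 0.000354). The reverse probe read -4.07, -3.93 and -3.33 against -4.91, -4.30 and -4.08, a difference of 0.66 (SE 0.30, adjusted p = 0.202). The probe of 4732419C18Rik inside the locus, on the reverse strand, went the other way from the forward probe, at 5.76 (adjusted p = 0.000233), and correlated with it at r = -0.85 over the arrays. That gene probe was well above background on 18 of the 24 arrays, so the 5.76 may set signal against background readings. The r spans both strains and may rest on the strain difference alone. Of the other 6 forward probes 2 had the sign of the strand probe.

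At chr4:126710640-126721240, 2161 bases from a probe of Sfpq, a splicing factor and paraspeckle protein gene, the reverse probe read -4.69, -4.80 and -4.87 in BALB/c and 0.34, 0.84 and 0.93 in SPRET/EiJ, a difference of -5.49 (SE 0.21, adjusted p = 6.90e-05). All 9 other reverse probes had the same sign, between -5.97 and -0.30. The forward probe read 0.78, -0.30 and 0.63 against 0.66, 0.04 and 0.94 (difference -0.17, SE 0.37, adjusted p = 0.783), with the strains overlapping. This was the named locus with the most probes behind its strain difference.

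At chr6:134838675-134847075 the forward probe read -3.58, -3.69 and -2.94 in BALB/c and 1.26, 2.77 and 2.04 in SPRET/EiJ, a difference of -5.43 (SE 0.42, adjusted p = 0.000608). The reverse probe read -4.64, -4.52 and -3.51 against -3.89, -3.89 and -3.54 (difference -0.45, SE 0.33, adjusted p = 0.418). All 4 other forward probes had the same sign, though with differences between -0.30 and -0.09. A probe of Gpr19, an orphan receptor gene, lay 19425 bases away.

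Probes of the same strand often disagreed beyond the named loci. Of 610 other probes on the strands that passed in the sham comparison 364 (59.7%) had the sign of the strand probe, and of the 219 that were well above background on all 6 arrays 136 (62.1%) did. Counting all 9431 probes of the loci, not the brightest of each strand alone, 642 (6.81%) passed, against 8.85% of all probes.

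The LDIR comparisons asked which strands changed after 10 cGy relative to sham tissues of the same strain and time, with the study's thresholds of an unadjusted p under 0.05 and more than 1.5-fold. Differences are LDIR minus sham on the log2 scale. No strand probe had an adjusted p under 0.05 in any of the 4 comparisons with limma, and the smallest adjusted p of a strand probe was 0.624 at 2, 0.548 at 4 and 1.00 at 8 weeks in BALB/c, while SPRET/EiJ reached 0.972. An unadjusted p under 0.05, with no fold threshold, was found for 85, 122, 22 and 32 of the 2084 strand probes (4.08%, 5.85%, 1.06% and 1.54%), no more often than for all probes (5.01%, 6.09%, 1.86% and 2.21%). All values of single loci below are therefore levels with a low unadjusted p only. Named rises and falls were picked among passing strand probes well above background on every array of the higher group. Their groups also had to be free of overlap, so the absence of overlap at them follows from the choice. Loci that passed on both strands were named without this rule. The median difference over strand probes was 0.09, 0.21, -0.13 and -0.02, and over all probes 0.00, 0.02, -0.14 and 0.04.

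In BALB/c at 2 weeks 47 strand probes passed, 36 (1.73%) higher and 11 (0.528%) lower after LDIR, against 2.25% and 0.876% of all probes. Strand differences passed at 43 loci (4.13%), against 4.6% of all pairs, and strands shared the sign of change at 55.4% of the 689 loci with both strands well above background on all 6 arrays. The count was 91 without LDIR replicate A, 74 without sham replicate C and 5 with normexp background correction.

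The largest rise was at chr8:47813487-47824869, where the reverse probe read -3.50, -3.50 and -3.13 in sham and -1.46, -2.16 and -1.50 in LDIR tissues (difference 1.67, SE 0.24, adjusted p = 0.624). The groups did not overlap, and the other reverse probe differed by 1.49. The forward probe read -4.41, -3.79 and -3.99 in sham and -4.24, -3.83 and -4.79 in LDIR tissues, and overlapped.

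At chr16:13752215-13764390 the forward probe was not well above background in sham tissues (-6.59, -5.87 and -5.88) and read -4.73, -4.94 and -4.82 after LDIR, at least 1.76-fold higher (adjusted p = 0.763), while the reverse probe had means of -4.06 (SD 0.19) in sham and -3.67 (SD 0.25) in LDIR tissues. Among passing probes well above background on all 3 sham arrays and without overlap, the largest falls were at chr13:26649529-26838004 and chr6:40693617-40720167. The reverse probe of the former went from -4.60, -4.98 and -4.56 to -5.27, -5.96 and -6.06, well above background on 1 of 3 LDIR arrays (difference -1.05, SE 0.26, adjusted p = 0.885). The latter contains a probe of the intestinal maltase gene Mgam. Its forward probe went from -4.35, -4.27 and -4.05 to -4.87, -5.05 and -5.16 (difference -0.81, SE 0.16, adjusted p = 0.790). The other strands of these loci differed by 0.41 (SE 0.14) and 0.01 (SE 0.17). The groups did not overlap at any of these 3 strand probes.

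Both strands passed at 2 loci at this time. At chr12:12876192-12918398 both were higher, the forward probe by 0.81 (SE 0.30, adjusted p = 0.894, well above background on 2 of 3 sham arrays), and the reverse probe passed as higher too but was well above background on 1 of the 6 arrays only. At chr16:40307931-40318856 the reverse probe was higher by 0.69 (SE 0.17, adjusted p = 0.894), with 1 of 3 sham arrays well above background. Its forward probe passed as lower but was well above background on 1 sham and on no LDIR array, so that no fold is given.

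In BALB/c at 4 weeks 79 strand probes passed, 56 (2.69%) higher and 23 (1.1%) lower after LDIR, against 3.37% and 1.42% of all probes. After quantile normalization the split was 43 to 33, and with normexp background correction 12 to 7. Strand differences passed at 72 loci (6.91%), against 5.17% of all pairs, and strands shared the sign of change at 62.9% of 709 loci. The changes of the strands were uncorrelated across loci (r = -0.04), and the median change was 0.21 over strand probes against 0.02 over all probes. The shared sign alone therefore does not show strands changing together. The slides bear on this comparison, since LDIR arrays and sham replicate C lay on slide 2 and sham replicates A and B on slide 1. Without sham replicate C 368 strand probes and 155 strand differences passed, and without LDIR replicate C 37 and 44. The share of all probes that passed in these fits is not given here, so the counts describe no trait of the loci. Without sham replicate B 59 passed and the split turned, to 22 higher and 37 lower. With the slide as a block, 63 strand probes passed, 19 higher and 44 lower. That fit sets sham replicate C alone against the 3 LDIR arrays, taking its spread to be that of the other arrays, so that LDIR and this array's own deviation cannot be told apart. Of the 29 markers 4 passed as higher and 3 as lower, with the macrophage list (3 genes) between 5.05 and 5.57 after LDIR and between 4.04 and 5.01 in sham tissues, the milk protein list (3 genes) between -3.43 and -0.46 against -4.65 and -4.35, and the brown adipocyte list (2 genes) between 2.50 and 4.19 against 4.66 and 6.17. The other 6 lists overlapped. Among them was the epithelial list, of which 2 of 6 passed as lower, the basal keratins Krt5 (-0.73) and Krt14 (-0.92). List values are summed levels, which mostly follow the brightest genes of a list, so dimmer genes such as these keratins add little to them. The part of these cells in the changes of the loci was not tested.

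At chr17:32035750-32056000 the reverse probe read -4.51, -4.64 and -4.47 in sham and -3.57, -3.35 and -3.07 in LDIR tissues (difference 1.21, SE 0.19, adjusted p = 0.548), and its companion on the same strand differed by 1.34. The forward probe overlapped, with means of -2.63 (SD 0.27) and -2.50 (SD 0.14). At chr6:3333825-3349525, 11246 bases from a probe of the interferon-induced gene Samd9l, the forward probe read -4.25, -4.85 and -3.96 in sham and -3.50, -2.78 and -3.13 after LDIR (difference 1.22, SE 0.30, adjusted p = 0.698), and the reverse probe differed by 0.50 (SE 0.24). The sham and LDIR levels of the forward probe did not overlap at this locus.

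Lower levels were read on the forward strand at chr5:110502650-110522475, with -4.42, -5.16 and -4.47 in sham tissues and -5.98, -6.75 and -7.77 after LDIR, where it was not well above background, at least 2.04-fold lower (adjusted p = 0.685). Its reverse probe, which shares 55 of its bases, was not well above background on any of these arrays. At chr8:85952719-85958369, 730 bases from a probe of Scoc, the forward probe read -3.85, -4.60 and -4.85 in sham and -5.03, -7.47 and -6.60 in LDIR tissues, well above background on 1 of 3 LDIR arrays (difference -1.93, SE 0.63, adjusted p = 0.783), and the reverse probe differed by -0.46 (SE 0.20). Both strands were higher at chr1:87343550-87362900 (forward 1.02, SE 0.27, adjusted p = 0.713, and reverse 0.81, SE 0.25, adjusted p = 0.783) and at chr13:114486580-114532455 (forward 0.73, SE 0.27, adjusted p = 0.783, and reverse 0.87, SE 0.26, adjusted p = 0.761), where each strand was well above background on 1 of 3 sham arrays.

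In BALB/c at 8 weeks 22 strand probes passed, 1 (0.048%) higher and 21 (1.01%) lower after LDIR, against 0.167% and 1.64% of all probes. The median of all probes was shifted by -0.14 in this comparison, and by 0.01 after quantile normalization, under which 12 were higher and 9 lower. The direction of these counts also turned without sham replicate A, with 24 higher and 17 lower and a median of all probes of 0.01. On that array the negative control spots read -13.8 after background subtraction, against -4.62 to -2.09 on the other 23 arrays, and its lowest level well above background was -4.70, against -6.04 and -6.17 on the other sham arrays of the group. Of the LDIR arrays, replicate A lay on slide 2 with the sham arrays and B and C on slide 3. With the slide as a block 15 strand probes passed, 6 higher and 9 lower, a comparison of LDIR replicate A alone with the 3 sham arrays that takes its spread to be that of the other arrays. Strand differences, which do not depend on the scaling of an array, passed at 27 loci (2.59%), against 1.99% of all pairs, with the same sign at 53.2% of 643 loci. Without LDIR replicate A 65 strand probes and 73 strand differences passed, without LDIR replicate C 11 and 15, and without sham replicates A and B 41 and 36 strand probes.

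The only higher strand probe was the reverse one of the Malat1 and Neat1 locus, chr19:5771425-5848475, which lies in Malat1. It read 1.1, 1.22 and 1.53 in sham and 2.02, 1.72 and 1.90 in LDIR tissues (difference 0.60, SE 0.24, adjusted p = 1.00, or 0.74 relative to the median of all probes). The Malat1 gene probe differed by 0.56 (adjusted p = 1.00), and the forward strand probe, next to the Neat1 probes, by 0.10 (SE 0.33). The other reverse probe, which was well above background on no array, differed by -0.95, and the mean of both by -0.17. The rest of the reverse strand in this locus was uneven. Probes named NEAT2, at the place of the Malat1 probe, differed by between 0.58 and 0.63, and the Neat1 probes by between -0.09 and -0.02. Other lincRNA probes differed by between 0.11 and 0.23 at 5798256 to 5802326, and by between 0.50 and 0.82 at 5834543 to 5834916. Among the lower probes, the reverse strand at chr18:77291264-77299664 read -3.09, -5.56 and -5.64 in sham tissues and was not well above background after LDIR (-6.34, -7.51 and -7.55), at least 2.24-fold lower (adjusted p = 1.00), and all 4 other reverse probes were lower too. The bound rests on sham replicate A, without which it was 1.26-fold. The reverse strand at chr18:35204950-35216650 read -4.13, -5.44 and -3.70 in sham and -5.75, -6.90 and -5.51 in LDIR tissues, well above background on 2 of 3 LDIR arrays, a difference of -1.63 (SE 0.59, adjusted p = 1.00), or -1.49 relative to the median of all probes. The forward strands of the chromosome 18 loci differed by 0.05 (SE 0.22) and -0.14 (SE 0.23).

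In SPRET/EiJ at 4 weeks 32 strand probes passed, 25 (1.20%) higher and 7 (0.336%) lower after LDIR, against 1.6% and 0.598% of all probes. After quantile normalization the split was 13 to 12, and normexp background correction left 1 probe, which was lower. Strand differences passed at 32 loci (3.07%), against 2.8% of all pairs, and the sign was shared at 51.9% of 578 loci. Without LDIR replicate A 51 strand probes passed, and without LDIR replicate B 56 strand differences. None of the 29 markers passed, and all 9 lists overlapped.

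Among passing probes well above background on all 3 LDIR arrays and without overlap, the reverse probe at chr1:6181200-6204300 had the largest rise. It went from -4.10, -5.46 and -4.66 in sham (2 of 3 well above background) to -2.80, -3.62 and -3.67 in LDIR tissues (difference 1.38, SE 0.43, adjusted p = 0.972). The other reverse probe differed by 1.00 and the forward strand by -0.14 (SE 0.29). At chr10:62262341-62271961, 2487 bases from a probe of Tet1, which oxidises methylated cytosine in DNA, the forward probe read -5.15, -6.07 and -6.19 in sham, with 1 of 3 arrays well above background, and -4.78, -4.74 and -4.14 after LDIR (difference 1.25, SE 0.37, adjusted p = 0.972). Groups did not overlap at either probe. The lower probes were the reverse strand of chr11:120041124-120052299, at 1.23, 1.1 and 0.98 in sham and -0.20, 0.42 and 0.66 after LDIR (difference -0.81, SE 0.30, adjusted p = 0.972), where 8 of 9 other reverse probes had the same sign, and the forward strand of chr8:10886200-10905925, at -3.56, -3.49 and -3.42 against -4.49, -4.17 and -3.94 (difference -0.71, SE 0.25, adjusted p = 0.972). Both strands passed at chr12:111617728-111665403, near the thyroid hormone deiodinase gene Dio3 (98877 bases), where the reverse, well above background on 2 of 3 LDIR and on no sham array, was higher by at least 1.31-fold (adjusted p = 0.972) and the forward passed as higher but was well above background on 1 of 6 arrays, and at chr16:38071700-38088275, where each strand probe was also well above background on 1 of 6 arrays, the forward passing as lower and the reverse as higher.

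The LDIR comparisons share no arrays. BALB/c at 2 and 4 weeks had 7 strand probes in common (14.9% of the former and 8.86% of the latter), 4 of them in the same direction, against 7.75% and 5.07% of the calls over all probes, where 94 of 135 had the same direction, and every other pair of comparisons had 4 or fewer. Whether the strand probes responded differently to LDIR in the strains at 4 weeks was tested as an interaction of strain and treatment, for which 61 strand probes (2.93%) passed an unadjusted p under 0.05 and more than 1.5-fold, against 3.53% of all probes, and 0 had an adjusted p under 0.05 with limma (the smallest over all probes was 0.377).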

How the data were processed

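Mammary gland total RNA in 24 samples was labelled with Cy3 and hybridised to Agilent mouse arrays. Per the file headers, Feature Extraction 10.10.1.1 read each of 62976 spots and gave a background-subtracted intensity per spot, which the authors deposited without normalization between arrays. The authors also deposited log2 values of the same arrays, made in GeneSpring by a shift to the 75th percentile and, as the values show, with a median of 0 per probe. These were used as an alternative.

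Each intensity was divided by the 75th percentile of its array over the 59305 non-control spots and taken as log2, 3777 outlier spots were left out, no spot was saturated and spots of a probe were averaged (55681 probes, 16251 of them for lncRNAs and 39430 called gene probes). All probes were fitted with limma 3.58.1 in R 4.3.3 (lmFit, eBayes) using the 6 arrays of each comparison, with Benjamini-Hochberg adjustment over all probes. Strand differences were fitted likewise over 6690 pairs. Tables and figures were made with Python 3.11.15, numpy 2.4.6, pandas 2.3.3 and matplotlib 3.10.9, and the scripts were tested on simulated data. The number of arrays limits the precision.

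The members, marker lists and named loci were chosen with earlier results of these data known. Named loci were those with the highest strand level by detection class, and the largest changes among strand probes that passed, did not overlap between groups and were measured on the higher side, with loci that passed on both strands added. "At least" folds set the brighter group's mean against the lowest signal well above background. The nearest gene of 1 named locus is not reported here.

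Slide 1 held all BALB/c 2-week arrays and 4-week sham A and B, slide 2 the other BALB/c 4-week arrays, 8-week sham A to C and LDIR A, and slide 3 the other 8-week LDIR arrays and all SPRET/EiJ arrays. Same-letter arrays of the sham and LDIR groups deviated together in all 3 pairs in BALB/c at 2 weeks alone (correlations 0.14, 0.44 and 0.10). Letters as a block gave 56 strand probes there against 47 without. The alternatives tried were quantile normalization, normexp as the background correction (offset 50), the deposited log2 values, other filters, tests and blocks, averaged probes and leaving out each array.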

Additional observations from a re-analysis of the deposited data

Results flagged for a closer look

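The 4 LDIR comparisons of each named strand probe were set against each other, and 2 probes stood out because every LDIR array moved one way in a group and the opposite way in another. The forward probe of chr16:40307931-40318856 was one of them, with -1.71 in BALB/c at 2 weeks, 0.87 in SPRET/EiJ at 4 weeks and -2.59 between them on the log2 scale. It was well above background on 1 of all 24 arrays, so that these values set background readings against each other and give no change of the strand. The forward probe of chr8:10886200-10905925 was higher in BALB/c at 2 weeks (0.41) and lower in SPRET/EiJ at 4 weeks (-0.71), which is 1.12 between them. Neither difference was tested, and strain, time and slide all differ between these groups.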

How the results depend on the processing

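With the strain comparison in sham tissues at 170 strand probes, the methods' t-test gave 103, the replicate block 105, 24 arrays fitted at once 259, the slide as a random block 268 and averaged probes 110, and the block left 51 of the 99 strand differences. For the strain comparison in LDIR tissues (100) the values were 211 with 24 arrays, 238 with the slide as a random block, 65 with averaged probes and, added after seeing the data, 43 within slide 3 (with the BALB/c arrays of 8 weeks), and 44 strand differences (81) with the block. After LDIR in BALB/c at 2 weeks (47), normexp gave 5, detected probes only 31, the methods' t-test 25, and 24 arrays and the slide block 21 each. At 4 weeks (79), normexp gave 19 and the methods' t-test 38. At 8 weeks (22), normexp gave 3, detected probes only 14, the methods' t-test 12, the replicate block 44 (52 strand differences against 27), 24 arrays 72 and the slide block 84. In SPRET/EiJ (32), normexp gave 1, detected probes only 9 and averaged probes 19. The interaction (61) gave 26 with normexp. The cause of these moves was not tested, and the counts stand without the share of all probes under each setting.

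Both strands were detected at 523 loci, 1 strand at 204 (forward) and 210 (reverse) and neither at 105 when all 24 arrays were required. With the software's weaker mark the last 3 classes held 24, 30 and 5 loci, and with 1 array enough 24, 21 and 6. Averaging the probes of a strand reversed the forward strand of chr5:122047900-122065325 between strains (-0.58) and the reverse strand of chr19:5771425-5848475 at 8 weeks (-0.17).

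Without 1 array at a time, strand probes and strand differences ranged from 105 to 127 and 57 to 70 (strain, sham), 50 to 140 and 38 to 82 (strain, LDIR), 40 to 91 and 46 to 57 (2 weeks), 37 to 368 and 44 to 155 (4 weeks), 11 to 65 and 15 to 73 (8 weeks) and 27 to 51 and 31 to 56 (SPRET/EiJ). Apart from BALB/c at 2 weeks the replicate letters pair no samples by the check in the methods. Of the 47 named results, all kept direction and call with the deposited log2 values, which come from the same intensities by the same scaling. After quantile normalization 36 did, with the methods' t-test 32, with averaged probes 21 and with normexp 18. With averaged probes 24 were weaker and 2 reversed. Probes near background limit what can be read, and strain cannot be told apart from slide in sham or LDIR tissues at 4 weeks.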
